A study of Rattus norvegicus with 12 samples.

Results

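The ADAM and ADAMTS genes are a family of zinc-dependent proteases that are carried on the cell surface or released into the matrix, together with the ADAMTS-like genes, which encode related matrix proteins without a protease domain. They were chosen by name: a gene belonged if its symbol on the array was Adam or Adamts followed by a number, with an optional letter, or Adamtsl followed by a number. This gave 48 genes of 34912 named on the array, of which 26 were ADAM, 18 ADAMTS and 4 ADAMTS-like. The rule uses names and no measured value. Expression was measured in the skull-roof bone (calvaria) of rats aged 10 weeks, 72 hours after surgery, on 12 single-colour Agilent arrays. In the laser group (4 arrays) a rectangular defect of 8 × 3 mm was cut with an Er:YAG laser, an erbium laser used to ablate hard tissue, at an output of 127 mJ per pulse and 20 Hz. In the bur group (4 arrays) a defect of the same size was drilled with a rotating bur. In the control group (4 arrays) no bone was ablated: the treatment protocol describes removal of the periosteum, the membrane over the bone, while the design text calls the control untreated. Strain, sex and genetic background were not given in the sources used here. The labels do not state whether each sample is its own animal; the p-values therefore speak only of the scatter among the samples measured, part or all of which may be technical.

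Membrane ADAMs cut the outer parts of other surface proteins free from the cell, a process called ectodomain shedding. ADAM17 releases TNF and several EGF-receptor ligands, and ADAM10 cuts Notch receptors. The secreted ADAMTS enzymes act on the matrix: one set cleaves aggrecan and versican, another trims the ends of procollagens, and ADAMTS13 cleaves von Willebrand factor. Most ADAM genes of the testis and epididymis serve sperm maturation and fertilisation. TIMP3 is the tissue inhibitor best known for blocking both ADAM17 and the aggrecan-cleaving ADAMTS enzymes.

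Each value is the log2 processed signal of the gene's brightest probe minus the 75th percentile of its array, so a value says where a probe stood on its array and levels of different genes were not compared. A probe counted as detected where the scanner software marked it well above background, and a gene was tested if it was detected on at least 4 of the 12 arrays, which 22718 genes were. Between 58.1% and 67.0% of probes were detected on an array. Arrays of 1 group correlated at 0.948 to 0.980 (control), 0.979 to 0.983 (bur) and 0.975 to 0.984 (laser). The 4 control arrays shared 1 slide and the 8 treated arrays a different one, so slide and group cannot be told apart in the comparisons with control. On the treated slide the bur arrays filled 1 column and the laser arrays the other, so column and group cannot be told apart between them.

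Of the 48 family members, 35 were tested, 28 were detected on all 12 arrays and 11 on none. The tested members were 8 of 9 catalytic membrane ADAMs and all 3 non-catalytic ADAMs known mainly from the nervous system. The others were 5 of 14 ADAMs known from reproductive tissue, 15 of 18 ADAMTS and all 4 ADAMTS-like genes. The 13 members left out were Adam2, Adam3a, Adam5, Adam18, Adam26a, Adam28, Adam30, Adam32, Adam34, Adam34l, Adamts16, Adamts19 and Adamts20. Of these, Adam30 was detected on 2 arrays and Adamts20 on 1, and the other 11 on no array. Among the reproductive ADAMs, 8 were never detected. In build rn4, the probes of Adam9, Adam32, Adam5, Adam3a and Adam18 lay next to each other on chromosome 16 at gaps of 66.7, 116.0, 55.1 and 66.3 kb, and of these 5 neighbours only Adam9, a broadly expressed membrane protease, was detected.

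More family members stood above control after laser ablation than below it. With limma at an adjusted p under 0.05, 7 of the 35 rose and 0 fell, against 9.26% of all tested genes higher and 13% lower. At an unadjusted p under 0.05 the family counts were 11 higher and 1 lower (31.4% and 2.86% of the 35), against 4225 and 4616 of all 22718 genes (18.6% and 20.3%). The members that rose were Adam15, Adam17, Adamts6, Adamts12, Adamts14, Adamts18 and Adamtsl4, the last of which entered the test only through its treated arrays. In 5 of the 7 the laser values lay wholly above the control values, which held for 8.87% of all genes, and in 0 wholly below (10.1%). The median change of the 35 members was 0.42 on the log2 scale, beside 0.02 over all genes, and 24 of the 35 changes were positive.

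After bur drilling 4 members rose and 1 fell, against 9.99% and 16.2% of all genes. Adam9, Adam15, Adam17 and Adamts6 rose, and Adam7 fell. The bur values lay wholly above control in 2 members (9.6% of all genes) and wholly below in 1 (15.7%). The family's median change was 0.25 on the log2 scale beside -0.00 over all genes (under normexp -0.042 beside -0.24, and with the marrow score -0.045 beside -0.01), and 23 of 35 changes were positive. Both comparisons use the same 4 control arrays, so their calls are not independent of each other. These counts moved with single arrays. The share of all genes that rose moved in the same fits. Without control 3 the counts of members that rose were 12 for laser and 10 for bur (17% and 16.7% of all genes). Without control 1 they were 2 and 1 (1.98% and 3.86% of all genes), as they were without control 4 (3.66% and 6.5%). The laser count was also 2 without laser 2 or laser 3 (2.28% and 2.33% of all genes), and 4 without bur 1, bur 3, laser 1 or laser 4 (4.56% to 8.56%). The bur count was 1 without bur 1 or bur 3 (5.33% of all genes in each) and 2 without bur 2 (7.42%), and the call of Adam7 was lost without control 1.

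**Figure D1:**
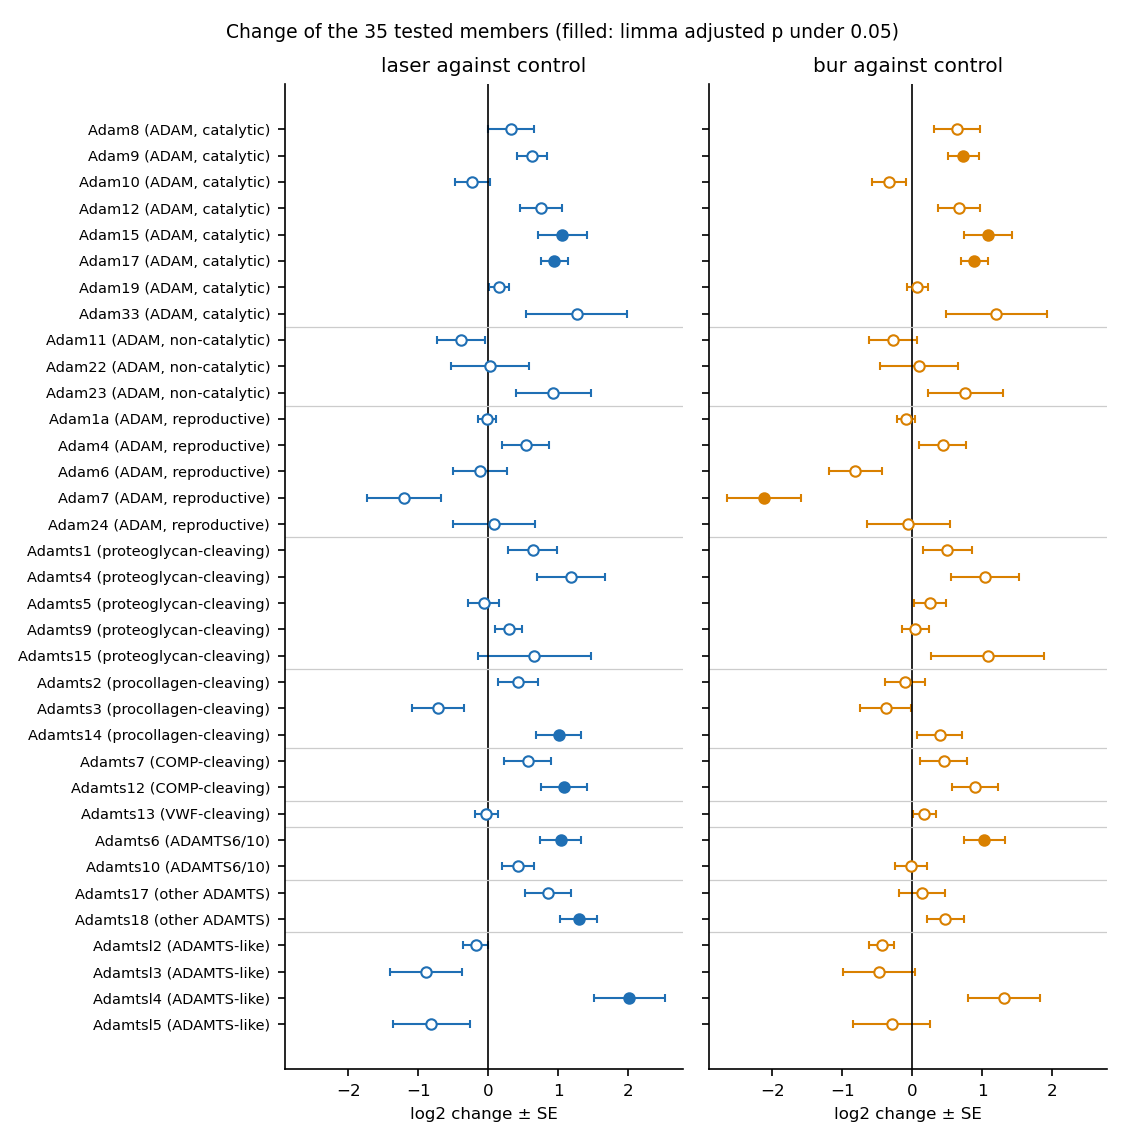
Change of each of the 35 tested members on the log2 scale (x axis, with SE) for laser against control (left) and bur against control (right), ordered by role; filled points passed limma's adjusted p of 0.05. Filled points lie to the right of 0 for 7 members after laser and 4 after bur, and the only filled point to the left is Adam7 after bur, at -2.12.

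Markers of marrow cells moved with the groups. For the counts below, 9.26% of all tested genes rose and 13% fell after laser, and 9.99% rose and 16.2% fell after bur. Of the measured markers, 11 of 12 erythroid genes fell in each comparison, 6 (laser) and 5 (bur) of 11 neutrophil genes, and 3 and 4 of 12 B cell genes. The summed erythroid level, in units of the array's 75th percentile, was 434.1 to 767.6 in control, 217.3 to 371.5 in bur and 242.7 to 452.7 in laser. The neutrophil sum was 198.5 to 553.0 in control, 121.2 to 208.3 in bur and 52.6 to 264.2 in laser, and that of B cells 8.93 to 33.0, 3.998 to 7.78 and 4.18 to 8.52. Markers of bone-forming cells (osteoblasts and osteocytes) rose in 7 of 11 after laser and 2 of 11 after bur, and their sums were 273.2 to 373.3, 289.5 to 426.6 and 361.6 to 496.4 in control, bur and laser. Macrophage markers rose in 4 and 5 of 11, with sums of 24.5 to 43.6, 42.5 to 78.9 and 45.9 to 80.6. Fibroblast markers rose in 2 and 3 of 12 (16.7% and 25%), with sums of 403.6 to 619.2, 435.6 to 680.7 and 455.1 to 633.9. Fat cell markers fell in 6 of 8 in each comparison, with sums of 24.0 to 45.3 in control, 12.2 to 26.0 in bur and 15.2 to 18.7 in laser. Cartilage markers rose in 2 of 8 after laser and 0 of 8 after bur, osteoclast markers split evenly at 1 higher and 1 lower of 11 in each comparison, endothelial markers fell in 1 and 2 of 12, and of 9 skeletal muscle markers 0 and 1 rose. The osteoclast shares (9.09% each way) and the endothelial shares (8.33% and 16.7% lower) lay near those of all genes. Marco (macrophage), Ltf (neutrophil), Fgf23 (osteocyte), Plin1 (fat cell), and Col9a1 and Matn3 (cartilage) were detected on fewer than 4 arrays. Of 11 skeletal muscle markers on the array, 9 were detected on enough arrays to be tested. Apart from the marrow lists, taken up next, the part of these cell types in the family's changes was not tested. In whole bone, fewer cells of a type and less RNA per cell cannot be told apart.

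A marrow score was formed by averaging the 3 marrow lists, each gene taken relative to its mean over all arrays. It was 1.32, 0.82, 0.11 and 2.07 on control arrays 1 to 4 and lay between -1.21 and 0.15 on the 8 treated arrays. Among the 4 control arrays alone, 11 of the 35 members fell at each step as the score rose, compared with 10.7% of all genes, and 1 (Adam7) rose at each step, compared with 13.9%. The 11 were Adam12, Adam15, Adam23, Adam33, Adamts1, Adamts6, Adamts7, Adamts10, Adamts12, Adamts15 and Adamtsl4. The main axis of difference between all arrays (first principal component, 49.5% of the variance) put the 4 control arrays in the same order. Among them, marrow content and any other difference along that axis cannot be told apart. With the score as a covariate, 0 members passed in any comparison, as did nearly no gene: of all 22718 genes 2 were higher and 0 lower after laser (0.0088% and 0%), and 0 passed after bur. The family's count in that fit therefore says nothing particular to it. In it limma's changes after laser were 0.04 for Adam15, 0.13 for Adamts12, 0.27 for Adamts6 and 0.24 for Adamts14. Adamts18 had a change of 1.32 (SE 0.42) with the score and 1.29 without it, and Adam17 0.64 (SE 0.28) with it and 0.94 without. The score itself differed between treated and control arrays, so score and group cannot be fully told apart.

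**Figure D2:**
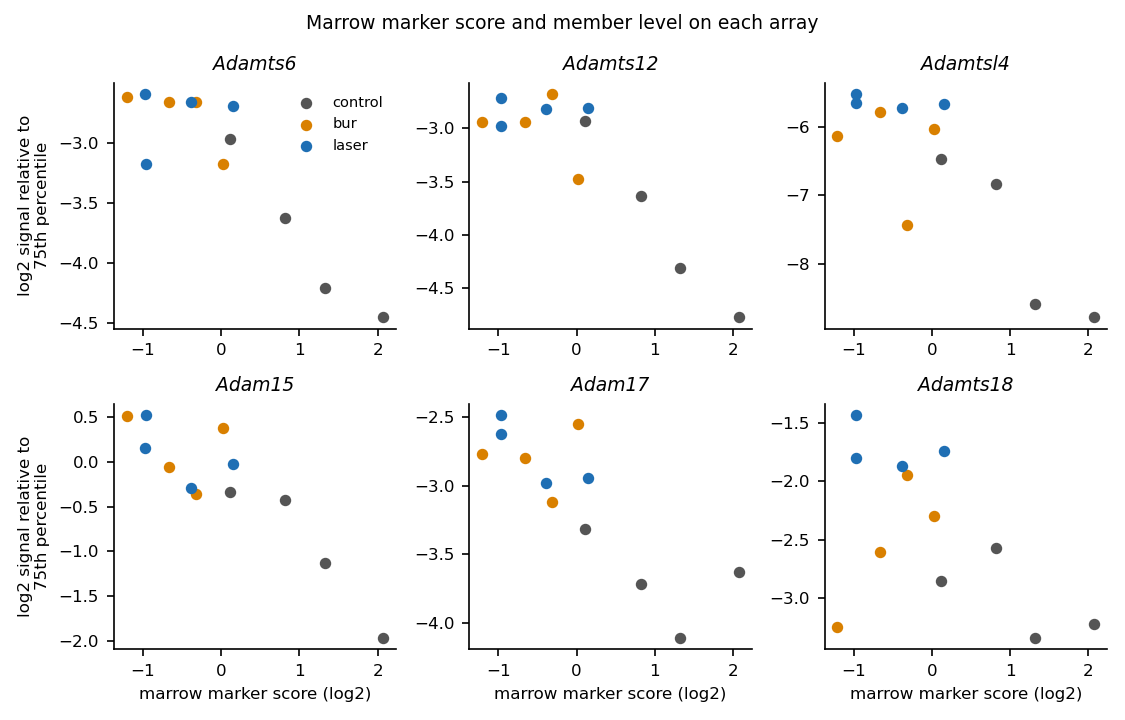
Marrow marker score (x axis, log2) against the log2 level of 6 members that rose after laser (y axis, relative to the array's 75th percentile); each point is 1 of 12 arrays. In Adamts6, Adamts12, Adamtsl4 and Adam15 the 4 control arrays step down as the score rises from 0.11 to 2.07, while in Adam17 and Adamts18 they do not step down at every array.

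Adam15, Adam17 and Adamts6 were the members that rose in both comparisons with control. Their promoters are shown because these 3 moved together: 250 bases before the annotated gene start and 50 after it, from RefSeq on build GRCr8. Capitals mark the GC box GGGCGG, searched on both strands. The Adam15 window is chr2:177062800-177063099 (minus strand), that of Adam17 chr6:46649295-46649594 (minus strand) and that of Adamts6 chr2:37155038-37155337 (plus strand).
Adam15: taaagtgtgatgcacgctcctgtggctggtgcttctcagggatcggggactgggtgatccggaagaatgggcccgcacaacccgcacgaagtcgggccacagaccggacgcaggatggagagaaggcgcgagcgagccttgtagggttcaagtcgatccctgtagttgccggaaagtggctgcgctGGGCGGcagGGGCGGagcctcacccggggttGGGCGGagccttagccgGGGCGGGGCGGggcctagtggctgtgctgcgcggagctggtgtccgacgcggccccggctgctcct
Adam17: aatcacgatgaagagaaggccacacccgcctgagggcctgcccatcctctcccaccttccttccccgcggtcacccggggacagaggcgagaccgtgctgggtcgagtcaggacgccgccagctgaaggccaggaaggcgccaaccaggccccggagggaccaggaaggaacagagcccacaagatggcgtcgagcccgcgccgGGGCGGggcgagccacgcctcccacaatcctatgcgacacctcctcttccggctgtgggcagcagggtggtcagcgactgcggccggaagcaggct
Adamts6: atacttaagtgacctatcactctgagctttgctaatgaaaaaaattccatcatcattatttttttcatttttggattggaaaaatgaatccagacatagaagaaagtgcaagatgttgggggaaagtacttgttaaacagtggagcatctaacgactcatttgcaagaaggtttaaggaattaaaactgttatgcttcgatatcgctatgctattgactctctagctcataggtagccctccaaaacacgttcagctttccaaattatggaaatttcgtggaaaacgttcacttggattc
The Adam15 window held 5 GC boxes, of which the last pair share a base, the Adam17 window 1 and the Adamts6 window 0. RefSeq windows were found for 31 of the 48 members. A GC box was present in 54.8% of these 31 and in 34.9% of all 27457 promoter windows of the same length, and the median GC content was 65.0% in the members and 52.3% in all. Of 7 other motifs, all searched on both strands, AP-1 (TGANTCA) was in 6.45% of the members and 7.33% of all, RUNX (TGTGGT) in 6.45% and 16.9%, the TATA box (TATAAA) in 22.6% and 14.3%, and CCAAT in 35.5% and 37.7%. The hypoxia element ACGTG was in 22.6% and 19.7%, C/EBP (TTGCNNAA) in 0% (0 of 31) and 10.5%, and TEAD (GGAATG) in 3.23% and 13.9%. A match describes letters and is no evidence of binding.

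Adam17, the sheddase that releases TNF, was at -4.11, -3.72, -3.32 and -3.63 in control, -2.80, -2.54, -2.76 and -3.12 after bur, and -2.94, -2.48, -2.62 and -2.98 after laser. Every treated array was above every control array. The change was 0.94 (SE 0.19, limma adjusted p = 0.0135) for laser and 0.89 (SE 0.19, limma adjusted p = 0.0107) for bur, a rise of 1.92-fold and 1.85-fold. It passed in all 12 fits that left out 1 array, in both comparisons. Its probe lies on chromosome 6 of rn4 at 41883292 to 41883351.

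Adam15, a membrane protease with an integrin-binding disintegrin domain, was at -1.13, -0.43, -0.34 and -1.97 in control, -0.06, 0.38, 0.51 and -0.36 after bur, and -0.02, 0.53, 0.16 and -0.29 after laser. The laser values did not overlap control, while bur 4 lay just below control 3. The changes were 1.06 (SE 0.35, limma adjusted p = 0.0480) and 1.08 (SE 0.35, limma adjusted p = 0.0399). Of the 12 fits that left out 1 array, the laser change passed in 2, those without control 2 or control 3, and the bur change in 6, being lost without control 1, control 4, bur 1, bur 2, bur 3 or laser 3 (limma adjusted p up to 0.122 for laser and 0.102 for bur). Leaving out control 1 gave 1.003 for laser at a limma adjusted p of 0.116, and leaving out control 4 gave 0.72 at 0.104. A dimmer Adam15 probe rose by 1.09 and 1.29 (limma adjusted p = 0.0338 and 0.0161 over all probes).

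Adam9, a widely expressed membrane sheddase, was at -4.94, -5.12, -5.07 and -5.58 in control and -4.61, -4.42, -4.36 and -4.40 after bur, without overlap. The rise after bur was 0.73 (SE 0.22, limma adjusted p = 0.0314) and passed in 5 of the 12 fits that left out 1 array, being lost without control 1, 2 or 4 or any 1 bur array (limma adjusted p up to 0.0800). It turned to -0.042 under another background correction (normexp), under which the median of all genes was -0.24. The laser values were -4.52, -4.08, -4.45 and -5.18, of which laser 4 lay within the control range, and the laser change of 0.62 missed the threshold (limma adjusted p = 0.0598). Blocked on replicate number, the laser change passed (limma adjusted p = 0.0424).

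The other catalytic membrane ADAMs did not pass in either comparison. Adam12, a protease of mesenchymal and fusing cells, changed by 0.75 after laser and 0.67 after bur (limma adjusted p = 0.0874 and 0.113), with control values of 1.27, 1.92, 2.52 and 1.06 against 1.95 to 2.82 on the treated arrays. Control 3 lay inside the treated range and control 1, 2 and 4 below it. Adam8, a protease of myeloid cells and osteoclasts, had changes of 0.32 and 0.65 (limma adjusted p = 0.495 and 0.161). Adam10, Adam19 and Adam33, described after their values were seen, had laser changes of -0.23, 0.15 and 1.26 (SE 0.25, 0.15 and 0.72). Adam33 was detected on 1 control, 2 bur and 2 laser arrays.

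Adam11, Adam22 and Adam23, which lack an active protease site and serve as adhesion proteins mainly in the nervous system, did not pass. Adam23 was at -2.65, -1.66, -0.53 and -3.41 in control and -1.97 to -0.45 on the treated arrays, with changes of 0.93 and 0.76 (SE 0.53 for both). Adam11 was detected on 0 control, 3 bur and 1 laser arrays and had changes of -0.39 and -0.27. Adam22, described after its values were seen, had changes of 0.02 and 0.10 at its brightest probe.

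Adam7, known from the epididymis, was the only member that fell. It was at -1.66, -2.15, -2.59 and -1.62 in control, -4.12, -3.48, -5.18 and -3.71 after bur, and -4.66, -2.47, -3.58 and -2.14 after laser. Every bur array was below every control array, while laser 2 and laser 4 fell within the control range. The bur change was -2.12 (SE 0.53, limma adjusted p = 0.0169), a drop of 4.35-fold, and the laser change was -1.21 (limma adjusted p = 0.115). Without control 1 the bur change was -2.01 at a limma adjusted p of 0.0511. The authors' deposited table lists Adam7 lower in both comparisons, with log2 changes of -1.64 for bur and -0.98 for laser.

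The other reproductive ADAMs did not pass. Adam6 was at -6.28 to -5.44 in control, -8.00 to -5.98 after bur and -6.26 to -5.65 after laser, with changes of -0.81 for bur and -0.12 for laser. Adam4 had changes of 0.43 and 0.53. Adam1a and Adam24, described after their values were seen, had changes between -0.09 and 0.08.

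**Figure D3:**
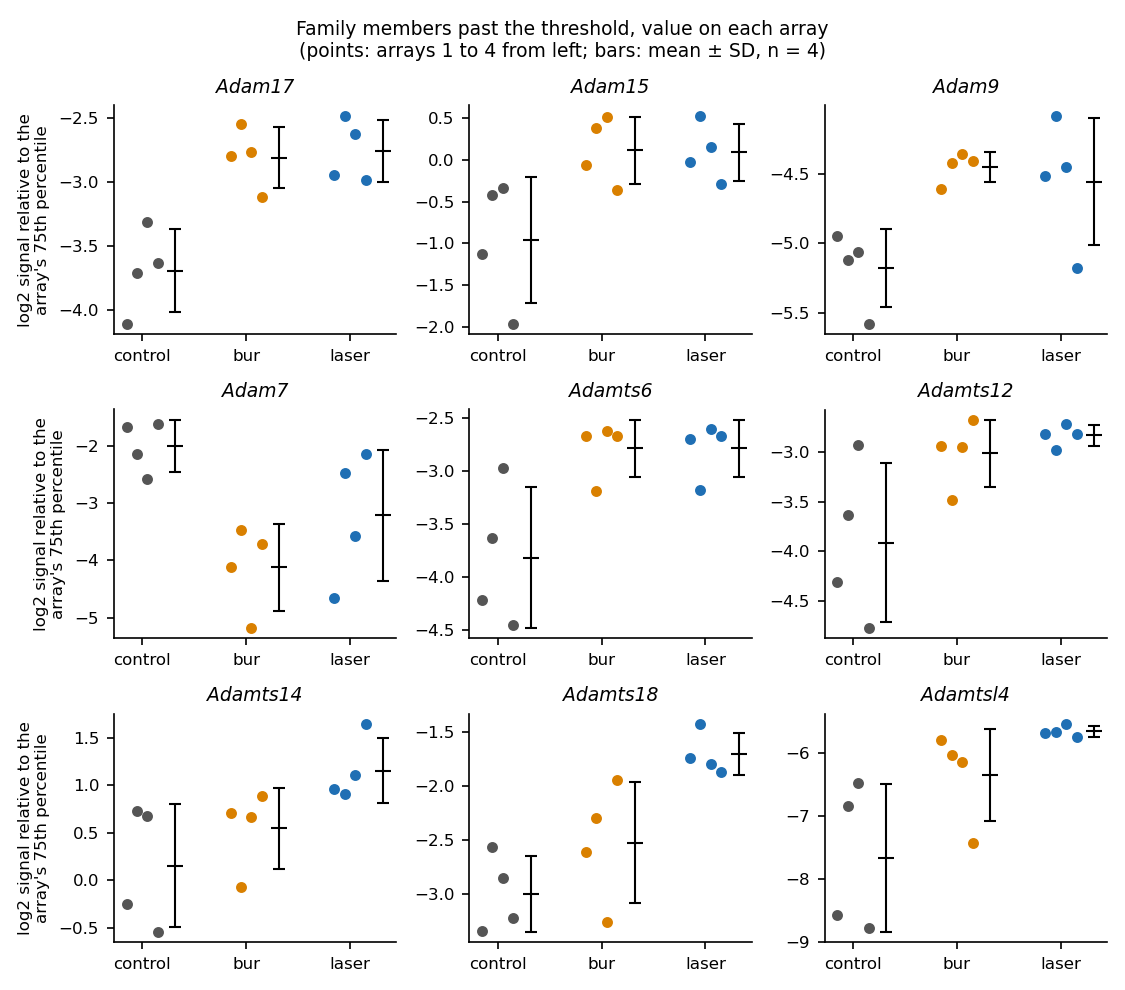
Log2 level relative to the array's 75th percentile (y axis) of the 9 members that passed in a comparison with control, on each of the 4 control, 4 bur and 4 laser arrays; bars show mean ± SD. Adam17 lies above control on every treated array, Adamts14, Adamts18 and Adamtsl4 are highest on the 4 laser arrays, and Adam7 has its lowest mean after bur.

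Among the proteoglycan-cleaving ADAMTS genes 0 of 5 passed in either comparison. Over all genes 9.26% rose and 13% fell after laser, and 9.99% rose and 16.2% fell after bur. With 5 genes, a count of 0 therefore says little about the class. Of the 5 changes, 4 were positive after laser and 5 after bur, with medians of 0.63 and 0.50. Adamts4, an aggrecanase, was at -3.31, -1.69, -1.94 and -3.90 in control, -2.45, -1.81, -1.24 and -1.18 after bur, and -2.03, -1.68, -1.59 and -0.84 after laser. Control 1 and control 4 were low, while control 2 and control 3 lay within the treated values. The changes were 1.17 and 1.04 (SE 0.49 for both, limma adjusted p = 0.0978 for laser and 0.130 for bur). Adamts1, a versican-cleaving enzyme, had changes of 0.63 and 0.50 (limma adjusted p = 0.207 and 0.303). A dimmer Adamts1 probe went the other way, by -0.65 and -0.79, and also missed the threshold. Adamts5, Adamts9 and Adamts15, described after their values were seen, had laser changes of -0.07, 0.29 and 0.65, and Adamts15 varied most among the control arrays, from -3.83 to 0.44.

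Of the 3 procollagen-trimming enzymes, Adamts14 rose after laser. It was at -0.25, 0.73, 0.67 and -0.54 in control, 0.70, -0.07, 0.67 and 0.89 after bur, and 0.96, 0.91, 1.11 and 1.65 after laser. Every laser array was above every control and bur array. The laser change was 1.003 (SE 0.32, limma adjusted p = 0.0433), and it passed in 3 of the 12 fits that left out 1 array, those without control 2, control 3 or bur 2. It was 0.87 (limma adjusted p = 0.120) without control 1 and 0.77 (limma adjusted p = 0.110) without control 4, and a block on replicate number gave a limma adjusted p of 0.0649. The bur change was 0.39 (limma adjusted p = 0.371). Adamts2, the main procollagen I peptidase, had changes of 0.42 and -0.11, and Adamts3 -0.72 and -0.38, none of which passed.

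Adamts12 and Adamts7 encode enzymes that cleave cartilage oligomeric matrix protein (COMP). Adamts12 was at -4.31, -3.64, -2.93 and -4.77 in control, -2.94, -3.48, -2.94 and -2.68 after bur, and -2.81, -2.98, -2.72 and -2.81 after laser. The laser arrays spanned a narrow range, and control 3 alone reached it. The laser change was 1.08 (SE 0.33, limma adjusted p = 0.0386), which passed in 3 of the 12 fits that left out 1 array, those without control 3, bur 2 or bur 4, and was 0.95 (limma adjusted p = 0.109) without control 1. The bur change of 0.90 missed the threshold (limma adjusted p = 0.0626), while the authors' deposited table lists Adamts12 as higher after bur, at 0.66. Adamts7 changed by 0.56 and 0.45, also short of the threshold.

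Adamts6 and Adamts10 are a related pair that act on fibrillin microfibrils, the scaffold of elastic fibres. Adamts6 was at -4.21, -3.63, -2.97 and -4.45 in control, -2.66, -3.18, -2.62 and -2.66 after bur, and -2.70, -3.18, -2.60 and -2.66 after laser. Control 3 lay above bur 2 and laser 2 and below all other treated arrays. The change was 1.03 (SE 0.29) in each comparison, with a limma adjusted p of 0.0307 for laser and 0.0253 for bur. Each passed in 7 of the 12 fits that left out 1 array. Without control 1 the change was 0.90 in each (limma adjusted p = 0.0902 and 0.0750), and without control 4 it was 0.82 (limma adjusted p = 0.0767 and 0.0640). The laser call was also lost without laser 2, 3 or 4, and the bur call without bur 1, 3 or 4. All 4 Adamts6 probes were higher in both comparisons, and a second one passed after laser (0.89, limma adjusted p = 0.0282). Adamts10 had changes of 0.42 and -0.02.

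Adamts18, an enzyme linked to eye and lung development, was at -3.35, -2.57, -2.86 and -3.23 in control, -2.61, -2.30, -3.26 and -1.94 after bur, and -1.74, -1.43, -1.80 and -1.87 after laser. Every laser array was above every array of the other groups. The laser change was 1.29 (SE 0.26, limma adjusted p = 0.0132), or 2.45-fold, and it passed in all 12 fits that left out 1 array. The bur change was 0.47 (limma adjusted p = 0.199). In the authors' deposited table Adamts18 was higher after bur as well, at a log2 change of 0.65. Its other probe, on chromosome 19 of rn4 at 43722339 to 43722398, against 43892161 to 43892220 for the brightest, had changes of 2.19 (limma adjusted p = 0.00781) for laser and 1.099 (limma adjusted p = 0.0541) for bur.

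The probes of Adamts17, an enzyme tied to fibrillin-rich matrix, disagreed. At the brightest probe the control values were -1.36, 0.37, -0.14 and -0.86, those after bur -0.13, -0.59, -0.74 and 0.01, and those after laser 0.07, 0.53, 0.48 and 0.33, with changes of 0.85 for laser (limma adjusted p = 0.0788) and 0.14 for bur. At the other probe, on chromosome 1 of rn4 at 121492766 to 121492825 against 121495566 to 121495625 for the brightest, control was at -0.26, 0.81, -0.16 and 0.23 and bur at -1.13, -1.40, -1.73 and -0.71, without overlap. That probe changed by -1.40 after bur (SE 0.30, limma adjusted p = 0.0108) and by -0.57 after laser (limma adjusted p = 0.184). Which transcripts each probe reads was not tested.

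Adamts13, the protease of von Willebrand factor, had changes of -0.03 and 0.17 (SE 0.16 for both), with all 12 arrays between -5.28 and -4.53. Vwf, its substrate, fell by 0.52 after laser and by 0.76 after bur (limma adjusted p = 0.0414 and 0.0104). The laser call of Vwf passed in 4 of the 12 fits that left out 1 array and the bur call in all 12, and with the marrow score its changes were -0.20 and -0.44, with no call.

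Of the ADAMTS-like genes, Adamtsl4, which encodes a microfibril-associated protein, was higher after laser. It was detected on 0 of 4 control, 3 of 4 bur and 4 of 4 laser arrays, so it met the minimum of 4 detected arrays only through the treated groups and its place among the 7 is a description. Values were -8.57, -6.83, -6.47 and -8.77 in control, -5.79, -6.03, -6.13 and -7.43 after bur, and -5.67, -5.65, -5.53 and -5.73 after laser. Every laser array was above every control and bur array. Since no control array detected it, the laser level was at least 2.58-fold higher than control, with the control set on each array at the higher of its own signal and the lowest signal of a detected probe. Its limma adjusted p of 0.0231 was lost in 4 of the 12 fits that left out 1 array, at 0.0693 without control 1, 0.0583 without control 4, 0.0588 without laser 2 and 0.0599 without laser 3, and was 0.751 under normexp. When testing was limited to the 18375 genes detected on all 12 arrays, a condition Adamtsl4 does not meet, 7 of 28 members rose after laser, against 10.4% of these genes. After bur the bound was 1.59-fold and the fit missed the threshold (limma adjusted p = 0.0760).

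Adamtsl2, a microfibril protein that binds a latent TGF-beta carrier, had changes of -0.18 and -0.43 at its brightest probe. A dimmer probe was at -6.76, -6.38, -6.83 and -6.39 in control and -5.02, -5.53, -5.23 and -4.69 after laser, and rose by 1.47 (SE 0.32, limma adjusted p = 0.0165). It was detected on 2 of 4 control arrays. Adamtsl3 and Adamtsl5 had laser changes of -0.89 and -0.81 at their brightest probes and 0.28 and 0.31 at the dimmer ones, none of which passed; Adamtsl5 is given after its values were seen.

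**Figure D4:**
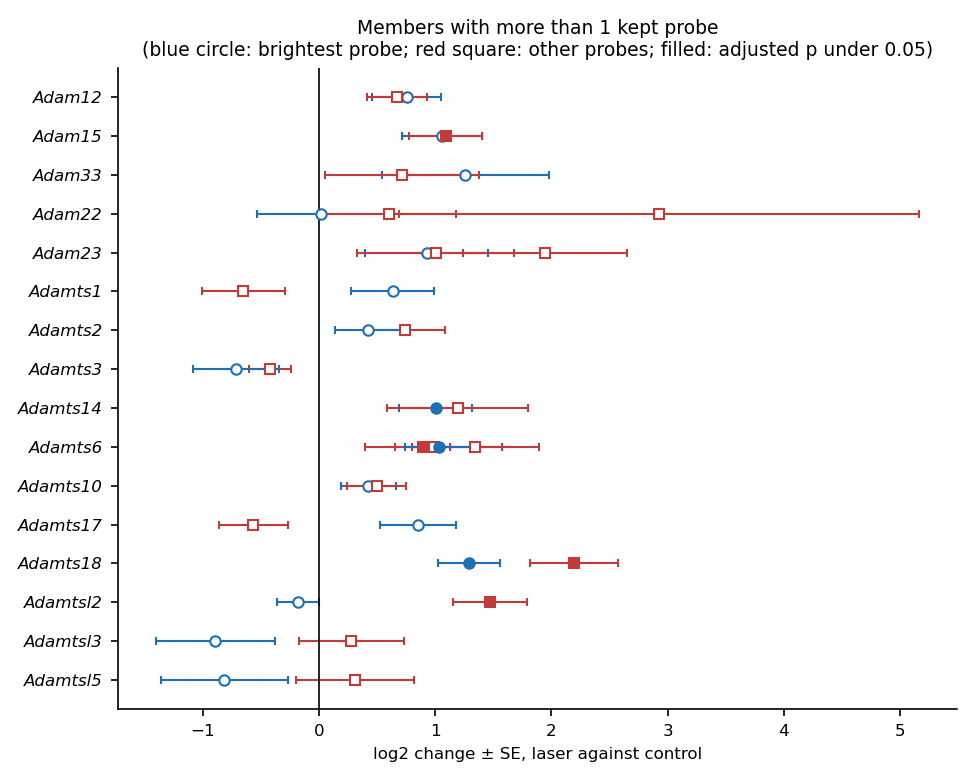
Log2 change after laser against control (x axis, with SE) for the 16 members with more than 1 kept probe; blue circles are the brightest probe, red squares the others, and filled points have a limma adjusted p under 0.05 in the fit over all 29775 probes. Both Adamts18 probes are filled and positive, whereas in Adamtsl2 the dimmer probe is filled at 1.47 and the brightest lies at -0.18.

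Laser and bur were then compared directly, the question being whether the way bone is cut altered these genes. No member passed with limma, nor did any of the 22718 genes (0% in each direction), while at an unadjusted p under 0.05 the counts were 1 member higher after laser and 0 lower, and 469 and 105 genes overall. The median difference, laser minus bur, was 0.10 in the family and 0.02 over all genes. In 4 members the laser arrays lay wholly above the bur arrays (1.57% of all genes), and in 0 wholly below (0.581%). These 4 were Adamts18, Adamts17, Adamts14 and Adamtsl4. Because Adamtsl4 entered the test only through its treated arrays, its place among the 4 is a description. Their differences were 0.82 (95% interval 0.24 to 1.40), 0.71 (-0.00 to 1.43), 0.61 (-0.09 to 1.30) and 0.70 (-0.42 to 1.82), each with a limma adjusted p of 0.9998. For Adam17 the difference was 0.05 (95% interval -0.37 to 0.48), for Adamts6 -0.00 (-0.64 to 0.63) and for Adam15 -0.02 (-0.78 to 0.73). For Adam7 it was 0.91 (-0.25 to 2.07). These intervals are from the fit without a replicate block, in which 1 of the 35, that of Adamts18, excluded 0. In the fit with the replicate number as a block, 2 did: Adamts18 at 0.82 (0.25 to 1.39) and Adam6 at 0.69 (0.06 to 1.32), with unadjusted limma p of 0.0101 and 0.0352 and an adjusted p of 0.9997 for both.

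**Figure D5:**
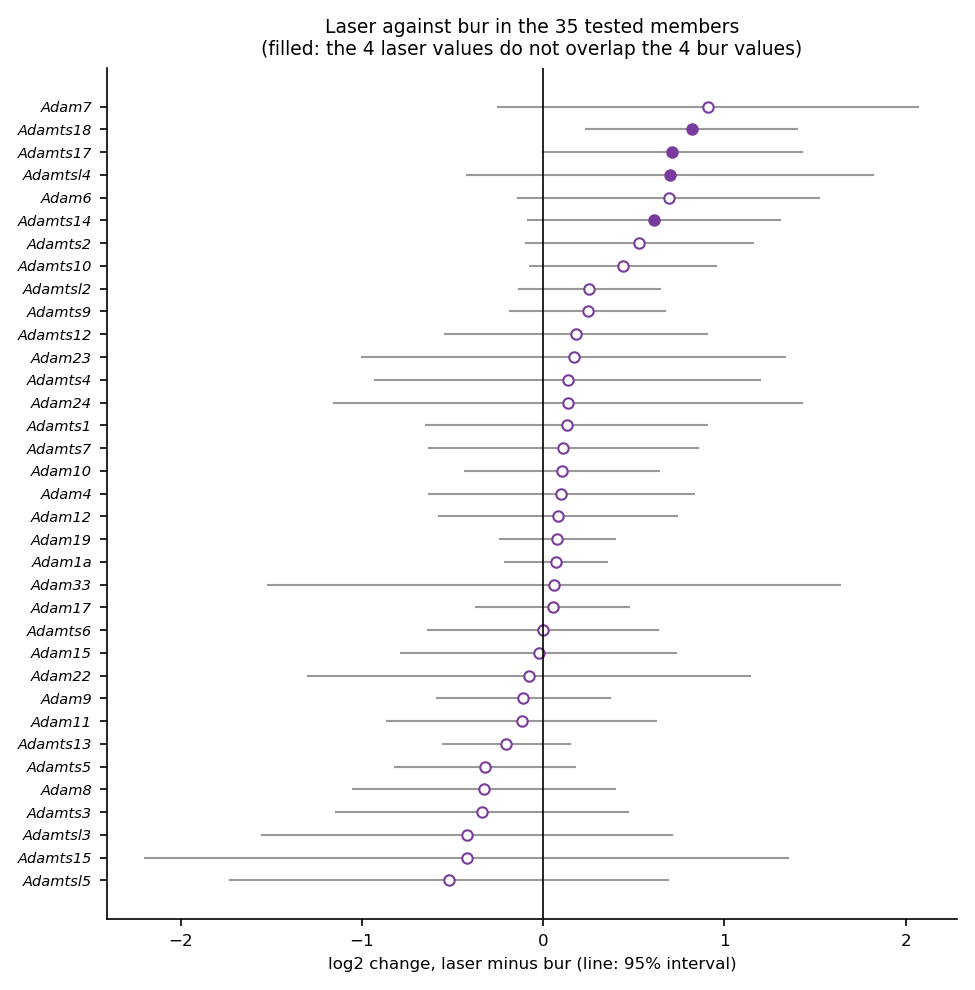
Difference between laser and bur on the log2 scale (x axis) with its 95% interval for each of the 35 tested members, in order of size; filled points mark members whose 4 laser values lie wholly above the 4 bur values. The fit has no replicate block. The interval of Adamts18, 0.24 to 1.40, excludes 0 here, and no member passed after adjustment.

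Among the genes around the proteases some rose and some fell. Over all tested genes, 9.26% rose and 13% fell after laser, and 9.99% rose and 16.2% fell after bur. Whether the lists differ from all genes was not tested. Of 7 protease inhibitors 1 rose and 1 fell in each comparison (14.3% each way), near those shares. Timp1, a broad metalloproteinase inhibitor, rose by 1.52 after laser and 1.55 after bur. Timp3 fell by 0.72 and by 0.93 (limma adjusted p = 0.0228 and 0.00705). Of 12 partners that mature or transport ADAMs, 2 rose and 3 fell after laser (16.7% and 25%) and 1 rose and 4 fell after bur (8.33% and 33.3%). Tspan33 fell by 2.66 and by 2.63, and Tspan10 by 1.17 and by 0.92, while Tspan17 rose by 0.66 and 0.55; these tetraspanins escort ADAM10. Pcsk6, a proprotein convertase, rose by 0.89 after laser, and Furin, the convertase that removes ADAM prodomains, fell by 0.78 after bur.

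Among 14 tested ADAMTS substrates 3 rose and 1 fell after laser (21.4% and 7.14%, beside 9.26% and 13% of all genes). After bur 2 rose and 1 fell (14.3% and 7.14%, beside 9.99% and 16.2%). Vcan (versican) rose by 1.26 and 1.53, Fbn1 (fibrillin-1) by 1.04 and 1.35, and Acan (aggrecan), detected on 3 of 4 control arrays, by 1.75 after laser. Of 15 genes of fibrillin microfibrils and elastic fibres 3 and 2 rose (20% and 13.3%) and 0 fell, among them Fbln2 at 1.83 and 1.93 and Ltbp1 at 0.52 after laser. Of 24 tested genes of proteins known to be shed from the surface, 6 rose and 4 fell after laser (25% and 16.7%). After bur 7 rose and 5 fell (29.2% and 20.8%). Tnfsf11, the osteoclast factor RANKL, rose by 1.87 and 1.58. It was detected on 1 of 4 control arrays and on all treated arrays, so its control level is mostly not well above background. Since it met the minimum of 4 detected arrays only through the treated groups, its place among the genes that rose is a description. Hbegf, an EGF-receptor ligand detected on 3 of 4 control arrays, rose by 1.30 after bur. Cxcl16, a membrane-bound chemokine, rose by 1.27 after laser. Cdh1 (E-cadherin) fell by 1.82 and by 1.77, and Vcam1, an endothelial adhesion molecule, by 1.32 and by 1.30. The change of Vcan after laser turned to a value below 0 with the marrow score as a covariate, as did those of Tnfsf11 and Hbegf after bur under normexp.

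The marrow markers moved with these partner genes too, and with the marrow score as a covariate none of the changes named for them kept its call. The falls of Cdh1 were then -0.31 and -0.27, those of Vcam1 -0.054 and -0.032, and those of Tspan33 -0.33 and -0.30. Timp1 was at 0.45 and 0.48, Fbln2 at 0.19 and 0.30, and Fbn1 at 0.02 and 0.32. Timp3, at -0.73 and -0.95, and Tspan10, at -1.09 and -0.85, kept changes near those without the score. Single arrays mattered as well. After laser, Fbn1 passed in 1 of the 12 fits that left out 1 array (without control 3), Ltbp1 in 2 (without control 4 or laser 4), Acan in 3 (without control 3, bur 4 or laser 1) and Pcsk6 in 5. Leaving out control 1 ended every other laser call named among the partner genes except that of Tspan10, and every bur call except those of Timp3, Tspan10, Vcan, Vwf and Hbegf.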

How the data were processed

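Spot intensity was deposited as scanner output of 12 arrays, made with Agilent Feature Extraction 11.0.1.1 per the submitters' processing notes and background-subtracted and detrended per the file headers; no spot was saturated. The detection flags (other values, 0 or 1) are per the file headers. The authors also deposited log2 values named as quantile-normalized, and tables of log2 changes with p-values; how these were made was not given in the sources used here. The authors' deposited table holds 31 of the members. It has 7 higher and 1 lower for laser, 5 higher and 1 lower for bur, and 0 for laser against bur. For bur it lists Adamts12 and Adamts18 as higher, which did not pass here, and Adam9 does not pass in it.

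Log2 was taken of each spot and the 75th percentile of the array's non-control spots subtracted. The spots of a probe were then averaged. Spots flagged as non-uniformity or population outliers were left out, unless every spot of the probe was flagged on that array. Control spots were left out. The brightest of 29775 kept probes stood for each gene. Groups were compared with limma 3.58.1 in R 4.3.3 (two-sided, all 12 arrays in 1 fit, Benjamini-Hochberg over 22718 genes, threshold 0.05), and probes in a separate fit; the fits were tested on simulated data. The precision is limited by the number of arrays. All 48 members matched a gene name of RefSeq GRCr8, and probe positions are those of build rn4 per the file headers. Every member that passed is named with its values, with up to 2 others a role class by smallest p and up to 4 genes of each partner list by size of change; others are marked as described after their values were seen. Members, lists and markers were chosen with earlier results of these data known. Some genes of the partner lists are not reported here and were left out of the lists' counts.

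Deviations of same-numbered arrays from their group means correlated at 0.126 to 0.336 between laser and control, 0.158 to 0.341 between laser and bur and -0.05 to 0.284 between bur and control. By the rule that every pair exceed 0.1, the first 2 comparisons counted as paired. The calls, SE and counts reported do not use this pairing, except where a block on replicate number is named. With that block Adam9 entered and Adamts14 dropped out among the laser calls. The labels give the numbers without saying what they share, and the number was also the row of the array on its slide.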

Additional observations from a re-analysis of the deposited data

Results flagged for a closer look

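In 7 of 105 groups of 4 arrays (35 members in 3 groups), 1 array stood apart from the other 3 by Dixon's test at 95%, a rate near the 1 in 20 that chance gives. Adamts6 was at -3.18 on bur 2 and between -2.66 and -2.62 on the other bur arrays. Adam10 was at -3.37 on laser 4, the others at -2.66 to -2.55. Adam33 was at -5.52 on control 3, the others at -9.02 to -8.71. It was detected on 1 of the 4 control arrays, so most of these values were not well above background. Adamts3 was at -3.62 on control 4, the others at -5.03 to -4.82. Adamtsl2 was at -4.12 on bur 4, the others at -4.66 to -4.58. Adam11, detected on 3 of the 4 bur arrays, was at -7.61 on bur 4, the others at -6.69 to -6.57. Adam24 was at -8.80 on laser 3, the others at -6.81 to -6.55.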

How the results depend on the processing

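Adam17 in both comparisons and Adamts18 after laser kept their calls in 10 of 11 other settings, the exception being the marrow score as a covariate, and in all fits that left out 1 array. The count of members that rose after laser, 7 as reported (9.26% of all genes), was 4 under normexp (5.23%), 3 without a detection filter (3.43%), 3 in a fit on only the 2 groups compared (2.87%), and 0 with the marrow score (0.0088%); leaving out 1 array gave 2 to 12. With the 75th percentile taken over probes detected on all arrays the laser count was 8 (11.4%), and with array weights 6 (15.6%). The count that rose after bur was 4 as reported (9.99%). It was 2 under normexp (7.25%), 2 in the fit on 2 groups (6.53%) and 0 with the marrow score (0%). It was 6 with array weights (16%), 6 in the deposited log2 table (31 members, 13.7%) and 5 under quantile normalization (13%). Leaving out 1 array gave bur counts of 1 to 10. The count that fell after bur, 1 as reported (16.2%), was 5 under normexp (27.7%), 2 without a filter (16.5%), 2 with array weights (20.9%), 0 with the marrow score (0%) and 0 in the deposited log2 table (31 members, 16.2%), and 0 to 1 on leaving out 1 array. Adam7, the member that fell, was not among the 31 fitted in the deposited log2 table, so that 0 is no lost call. Normexp lowered the median of all genes to -0.08 (laser) and -0.24 (bur), and that of the family to 0.13 and -0.042. The count that fell after laser, and both counts of laser against bur, were 0 in every setting. The cause of these shifts was not tested.

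Among changes that had passed, direction turned for Adam9 after bur (-0.042), Tnfsf11 after bur (-0.15) and Hbegf after bur (-0.028) under normexp, and for Vcan after laser (-0.053) with the marrow score. Counting all 35 members, called or not, the sign turned in 10 after laser and 16 after bur with the marrow score, in 3 and 7 under normexp, in 2 and 7 with the mean of kept probes and in 3 and 4 with array weights.

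With the replicate number as a block, 7 members rose and 0 fell after laser, 5 rose and 1 fell after bur, and 0 passed between laser and bur. After laser, 6 of the 7 were among the members reported; Adam9 entered and Adamts14 dropped out. After bur, where the numbers did not pair the arrays, Adamtsl4 entered (limma adjusted p = 0.0453). No other call of a member changed under the block.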

Other observations

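A dim second probe of Adam22, singled out after its values were seen, stood at 5.38 on laser 4 and between -7.49 and -6.54 on the other 11 arrays, while the brightest Adam22 probe was at -4.41 on laser 4 and between -6.01 and -3.04 on the others. The cause was not tested. Adamts1 and Adamts5, whose probes lie 69.2 kb apart on chromosome 11 of rn4, had laser changes of 0.63 and -0.07, and Adamts13 and Adamtsl2, 108.2 kb apart on chromosome 3, had -0.03 and -0.18.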
